A study of Mus musculus with 50 samples.

Results

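Ephrins and Eph receptors were followed across 5 populations of mouse colon cells carrying mutant p53, active Ras, both or neither. The members were 10 genes, taken as every probe set whose only gene symbol in the platform annotation is Epha2, Epha4, Epha7, Ephb2, Ephb3, Ephb4, Efna1, Efna5, Efnb1 or Efnb2. Of these 10 genes, 9 had a probe set of their own, 5 of them receptors and 4 ephrins, and all 9 were among the 12883 genes tested. Ephb2 was not analysed here. The 9 genes were read by 23 of the 45037 probe sets with values, and 18 of the 23 passed the filter on dim signal.

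RNA bound to polysomes was measured on 50 arrays, 10 for each population. YAMC is a young adult mouse colon line from the Immorto-mouse, which carries a temperature-sensitive SV40 large T antigen under an interferon-inducible promoter; all 5 populations share it. The YAMC group itself was not infected. The bleo/Neo population carried both empty retroviral vectors, mp53 carried p53175H and the empty Neo vector, Ras carried the empty Bleo vector and RasV12, and mp53/Ras carried p53175H and RasV12. Each infected population was polyclonal and was derived once, so a difference between populations cannot be told apart from a difference between single infections. The permissive temperature of all 5 populations was 33 °C. All cells were held for 48 h at 39 °C without interferon, which removes large T activity, and then for 24 h in 0% serum. The labels do not say whether the 10 arrays of a population came from separate cultures, so p-values measure only the spread between these arrays.

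Eph receptors are receptor tyrosine kinases whose ligands, the ephrins, are tethered to the surface of neighbouring cells. A-type ephrins are held by a lipid anchor and B-type ephrins span the membrane, and contact between cells signals into both of them, often ending in repulsion or in sorting of cells into separate territories. In the intestinal crypt, EphB receptors and B-type ephrins are known to keep proliferating and differentiated cells apart, and the EphB receptors there are known targets of Tcf and β-catenin.

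Each value below is the log2 of an intensity, and a difference is between means of 10 log2 values. The median of the whole table was 6.44, and a gene was tested if its brightest probe set lay above that median on at least 10 arrays. A difference was called at an adjusted p under 0.05 in a limma fit of all genes, with Benjamini-Hochberg adjustment. Over all genes, 46 of the 50 arrays lay nearest to the mean of their own group; the array labelled YAMC 2 lay nearest to mp53, the one labelled mp53 8 to YAMC, the one labelled mp53 10 to Ras, and the one labelled Ras 10 to mp53. Of 13 epithelial markers, 7 passed the filter, among them Epcam, Krt8, Krt18 and Krt19, while the defining marker Cdh1 was under the table median on all arrays, at group means of 3.95 to 4.31. Of 12 fibroblast and smooth muscle markers, 9 passed. The immune list had 3 of 6 measured genes above the filter with Ptprc above the median on 0 arrays, the neural and glial list 3 of 5, and the list of intestinal lineages 1 of 8, Muc2.

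Epha7 was the member with the widest range of group means. It was high in the cells with empty vectors, intermediate in mp53 cells and lowest in the Ras and mp53/Ras cells. EphA7 is a receptor for A-type ephrins. In YAMC cells the lowest array read 6.07, the median 6.70 and the highest 7.29. In bleo/Neo cells the corresponding values were 8.23, 9.31 and 9.51, and in mp53 cells 7.01, 7.48 and 8.24. The bleo/Neo arrays lay above every YAMC array, and the mp53 arrays lay between and overlapped both. Ras arrays ran from 5.13 through a median of 6.09 to 7.74, and mp53/Ras arrays from 4.96 through 5.65 to 6.80. No array of either Ras-carrying population reached the lowest bleo/Neo array, and the highest Ras value came from the array labelled Ras 10, the next one being 6.59. Against YAMC, Epha7 was higher by 2.47 ± 0.20 (SE) in bleo/Neo cells, a 5.54-fold difference (limma adjusted p = 1.59e-14), and higher by 0.80 in mp53 cells (adjusted p = 0.00273). Against bleo/Neo its differences were -1.67 in mp53 cells (3.18-fold), -3.01 in Ras cells (8.03-fold) and -3.48 in mp53/Ras cells (11.1-fold), with limma adjusted p = 2.12e-09, 8.21e-18 and 1.6e-20. The size of the Ras and mp53/Ras folds is uncertain, since this probe set lay above the table median on only 2 of 10 Ras and 1 of 10 mp53/Ras arrays. Against YAMC the leading probe set fell by 0.54 in Ras cells (limma adjusted p = 0.0279) and by 1.01 in mp53/Ras cells (adjusted p = 3.31e-05). Without the arrays labelled mp53 10 and Ras 10, the Ras differences were -0.71 against YAMC and -3.18 against bleo/Neo. The order bleo/Neo, mp53, YAMC, Ras held with every neighbouring pair called, whereas Ras and mp53/Ras differed by 0.47 (limma adjusted p = 0.0897).

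A second Epha7 probe set, 1443485_at, bore out the high bleo/Neo level but not the low level below YAMC. Its group means were 6.56 (YAMC), 7.99 (bleo/Neo), 6.86 (mp53), 6.65 (Ras) and 6.67 (mp53/Ras). Its differences from bleo/Neo were all called, at -1.13, -1.34 and -1.32 for mp53, Ras and mp53/Ras. Against YAMC its values were 0.09 for Ras and 0.11 for mp53/Ras, neither called. The loss of Epha7 below the uninfected level therefore rested on the leading probe set, 1451991_at, whose means in both Ras-carrying populations were under the table median. The other Epha7 probe sets, 1427528_a_at and 1452380_at, did not pass the filter.

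Epha4 was below the table median in uninfected YAMC cells and higher in every infected population. EphA4 is a receptor that binds both A-type and B-type ephrins. In YAMC cells its lowest array read 4.72, its median 5.46 and its highest 6.50, and 1 of 10 arrays lay above the table median. In bleo/Neo cells the lowest, median and highest arrays read 7.30, 8.14 and 8.55. The values were 6.62, 7.11 and 7.87 in mp53 cells. All 40 infected arrays lay above all 10 YAMC arrays. Ras cells gave 7.28, 7.60 and 8.23, and mp53/Ras cells 6.92, 7.81 and 8.23. The gain over YAMC was 2.47 ± 0.18 (SE) in bleo/Neo cells (5.54-fold; limma adjusted p = 9.44e-17), 1.56 in mp53 (2.95-fold), 2.04 in Ras (4.12-fold) and 2.08 in mp53/Ras cells (4.24-fold). The adjusted p of the last 3 were 5.62e-09, 2.33e-13 and 2.5e-14 in the same limma fit. The size of these folds is uncertain, since the YAMC mean was under the table median. Against bleo/Neo, Epha4 fell by 0.91 in mp53 cells (limma adjusted p = 4.21e-05) and by 0.43 in Ras cells (adjusted p = 0.0472), and stood at -0.39 in mp53/Ras cells (adjusted p = 0.0594). The Ras call was lost without the arrays labelled mp53 10 and Ras 10, at -0.39 and adjusted p = 0.0768. A second probe set, 1421928_at, was called higher than YAMC in all 4 infected populations, by 0.61 (bleo/Neo), 0.26 (mp53), 0.67 (Ras) and 0.59 (mp53/Ras). A further one, 1421929_at, gave 0.63, 0.31, 0.18 and 0.41, of which the Ras value was not called. It was above the table median on 15 arrays, of which 8 were bleo/Neo and 0 YAMC. It passed the filter only with the bleo/Neo arrays, where it was high, so the filter favoured its gain there. The probe sets 1439757_s_at and 1456863_at did not pass the filter.

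In bleo/Neo cells, where both receptors gained, the endothelial genes Tek and Esam were called higher than in YAMC and Kdr lower. The summed intensity of the 8 endothelial markers was 535 to 687 in YAMC arrays and 931 to 1366 in bleo/Neo arrays. It was 513 to 624 in mp53, 495 to 560 in Ras and 629 to 751 in mp53/Ras arrays. Epha4 was also above YAMC in these populations, and single genes of the list did not all follow the sum. Of the 8, Kdr, Tek and Esam passed the filter, whereas the defining markers Pecam1, Cdh5, Tie1, Vwf and Emcn were above the table median on 0 of 50 arrays. Tek averaged 5.81 in YAMC and 7.11 in bleo/Neo cells, Esam 6.88 and 9.49, and Kdr 7.99 and 7.52. The summed intensity of the 12 fibroblast and smooth muscle markers was 58711 to 78378 in YAMC and 34604 to 55273 in bleo/Neo arrays. That sum was 33583 to 79595 in mp53, 27197 to 56706 in Ras and 34862 to 45254 in mp53/Ras arrays. It lay below all YAMC arrays in both Ras-carrying populations, where Efnb1 fell, and also in bleo/Neo cells, where Efnb1 rose. The 13 epithelial markers summed to 5313 to 10441 (YAMC), 9836 to 14582 (bleo/Neo), 7938 to 15291 (mp53), 11539 to 16346 (Ras) and 13903 to 17150 (mp53/Ras). The brightest of the 13 were Krt8, Krt18 and Krt19, which weigh most in this sum. Krt8 averaged 11.75, 12.26, 12.36, 12.84 and 12.94 in the same order, whereas Epcam averaged 8.40, 8.07, 8.34, 8.39 and 8.41. The part of all these marker genes in the Eph and ephrin differences was not tested, and in bulk RNA fewer cells of a type and less RNA per cell cannot be told apart.

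**Figure D1:**
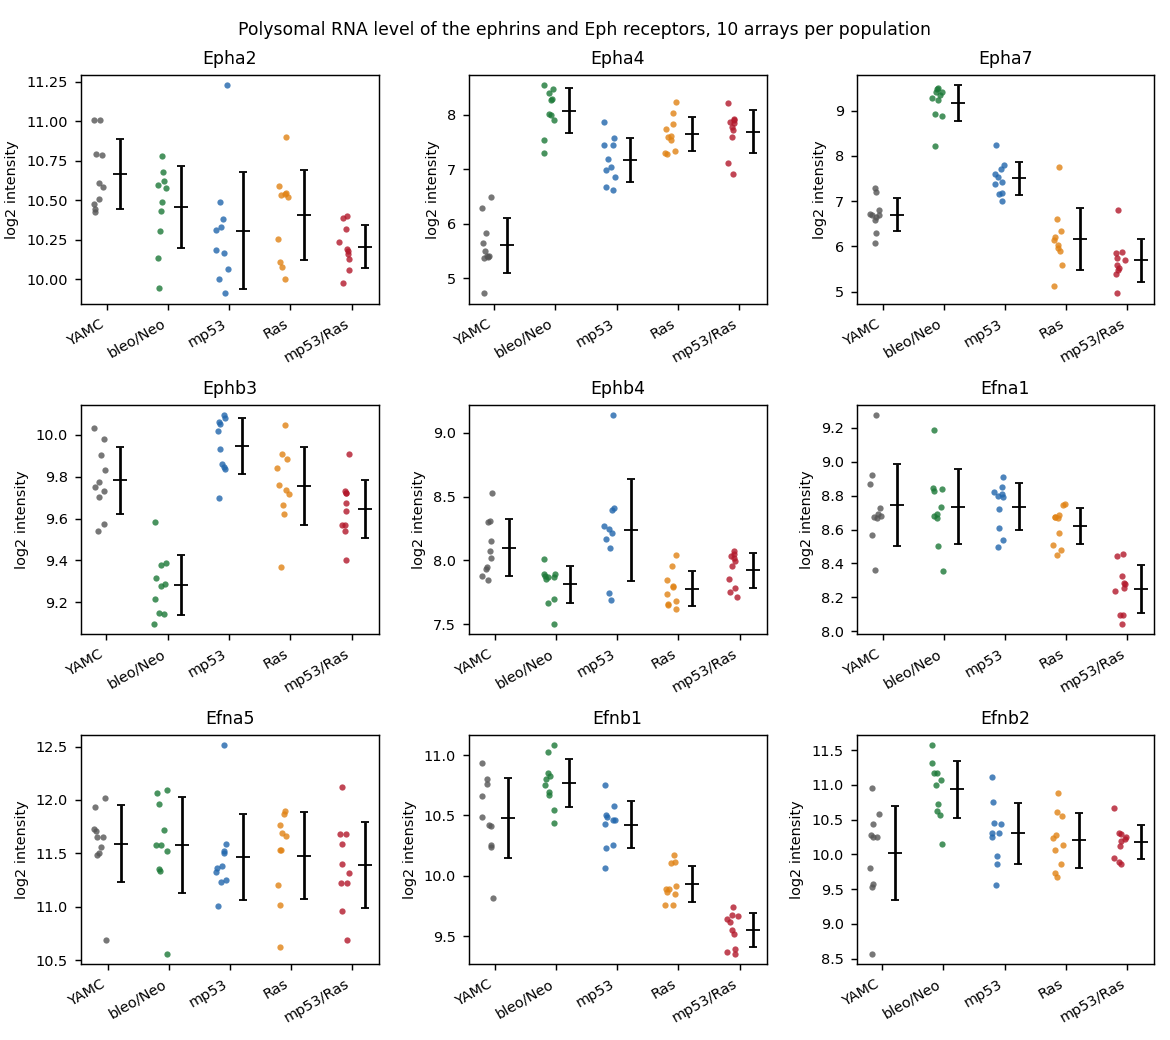
Log2 intensity (vertical axis) of the leading probe set of each of the 9 members on all 50 arrays, by population; each point is 1 array, and the bar marks the group mean with its SD. Epha7 is highest in bleo/Neo cells, Epha4 is lowest in YAMC cells, and Efnb1 steps down from mp53 to Ras to mp53/Ras, while the 5 groups of Efna5 overlap.

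The remaining A-type receptor, Epha2, moved little. EphA2 is the main receptor for ephrin-A1 in many epithelia and is known as a gene induced by Ras and ERK signalling. Its lowest, median and highest arrays were 10.43, 10.60 and 11.01 for YAMC, 9.95, 10.53 and 10.78 for bleo/Neo, and 9.91, 10.25 and 11.23 for mp53 cells. They were 10.00, 10.53 and 10.90 in Ras and 9.98, 10.19 and 10.40 in mp53/Ras cells. Only the mp53/Ras arrays lay wholly below the YAMC arrays. Epha2 fell by 0.46 against YAMC in mp53/Ras cells (limma adjusted p = 0.000738) and by 0.36 in mp53 cells (adjusted p = 0.0202), and the mp53 call was lost without all 4 arrays that lay nearer another group, at -0.28 and adjusted p = 0.0796. In Ras cells the differences were -0.26 from YAMC and -0.05 from bleo/Neo, neither called in the main fit. The former was called with cyclic loess between arrays (-0.28; limma adjusted p = 0.0486) and with a replicate block (-0.26; limma adjusted p = 0.0368). On the same Ras arrays, 12 of 13 genes of an ERK-induced list were called higher in either comparison. The share called over all genes was 42.7% against YAMC and 41.1% against bleo/Neo. A link between these genes and Epha2 was not tested. The list's median difference was 0.77 against YAMC and 0.94 against bleo/Neo, and 0.01 and -0.01 over all genes tested.

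The B-type receptors had narrower ranges of group means than Epha4 and Epha7, at 0.67 for Ephb3 and 0.46 for Ephb4. That of Epha2 was 0.46. EphB3, a receptor of crypt cells, was lowest in bleo/Neo cells. Ephb3 read 9.54, 9.76 and 10.03 as lowest, median and highest in YAMC, 9.10, 9.28 and 9.58 in bleo/Neo, and 9.70, 9.98 and 10.09 in mp53 cells. The arrays of mp53 lay above all bleo/Neo arrays, and YAMC overlapped bleo/Neo by its 2 lowest arrays. Ras cells gave 9.37, 9.75 and 10.05, and mp53/Ras cells 9.40, 9.66 and 9.91. Ephb3 fell by 0.50 ± 0.07 (SE) in bleo/Neo cells against YAMC (1.41-fold; limma adjusted p = 1.66e-07). It rose against bleo/Neo by 0.67 (1.59-fold) for mp53, 0.47 for Ras and 0.36 for mp53/Ras cells, with adjusted p = 1e-10, 3.74e-07 and 2.71e-05 in the limma fit. None of mp53, Ras and mp53/Ras was called against YAMC. EphB4, the receptor that pairs with ephrin-B2 in blood vessels, had group means of 8.10 (YAMC), 7.81 (bleo/Neo), 8.24 (mp53), 7.78 (Ras) and 7.92 (mp53/Ras). Its groups overlapped in every pair. Ephb4 fell against YAMC by 0.29 in bleo/Neo and by 0.32 in Ras cells (limma adjusted p = 0.0228 and 0.00943), and mp53 cells stood 0.42 above bleo/Neo (adjusted p = 0.000772).

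Among the ligands, ephrin-B1 stepped down from mp53 to Ras to mp53/Ras cells on its leading probe set. Ephrin-B1 is a transmembrane ligand of EphB receptors, encoded on the X chromosome. Efnb1 read 9.81, 10.46 and 10.94 in YAMC as lowest, median and highest, 10.44, 10.78 and 11.08 in bleo/Neo, and 10.07, 10.46 and 10.75 in mp53 cells. It read 9.76, 9.89 and 10.17 in Ras and 9.35, 9.58 and 9.74 in mp53/Ras cells. All 10 mp53/Ras arrays lay below every array of the other 4 populations, and the Ras arrays lay below all bleo/Neo arrays. Efnb1 fell in Ras cells by 0.55 against YAMC and by 0.84 ± 0.10 (SE) against bleo/Neo (1.79-fold), with limma adjusted p = 6.69e-06 and 3.01e-10. In mp53/Ras cells it fell by 0.93 against YAMC (1.9-fold), by 1.22 against bleo/Neo (2.32-fold) and by 0.38 against Ras, with limma adjusted p = 1.12e-11, 1.02e-15 and 0.00248. It also fell by 0.35 in mp53 against bleo/Neo (limma adjusted p = 0.00336) and rose by 0.29 in bleo/Neo against YAMC (adjusted p = 0.0137). The other Efnb1 probe sets, 1418285_at and 1451591_a_at, fell by 0.51 and 0.52 in Ras cells against YAMC and by 1.21 and 1.11 in mp53/Ras cells against bleo/Neo, all called. At the single steps, 1451591_a_at was called for Ras against mp53 (-0.53) and for mp53/Ras against Ras (-0.29), whereas 1418285_at was called at neither (-0.41 and -0.22; limma adjusted p = 0.0549 and 0.371).

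Ephrin-B2, the other transmembrane ligand, was high in bleo/Neo cells. Efnb2 read 8.57, 10.24 and 10.96 in YAMC as lowest, median and highest, and 10.16, 11.03 and 11.57 in bleo/Neo cells. Group means were 10.30 (mp53), 10.20 (Ras) and 10.18 (mp53/Ras), and every pair of groups overlapped. Efnb2 rose by 0.91 ± 0.20 (SE) in bleo/Neo against YAMC (1.88-fold; limma adjusted p = 0.000196). Against bleo/Neo it fell by 0.63 for mp53, 0.73 for Ras and 0.76 for mp53/Ras cells, with limma adjusted p = 0.00923, 0.00208 and 0.000948. Against YAMC these 3 populations stood at 0.28, 0.18 and 0.15, none called. The probe set 1419638_at gave 0.95 for bleo/Neo against YAMC, also called, but 1449548_at gave 0.04 and was called in no comparison, and 1449549_at did not pass the filter.

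Ephrin-A1, a lipid-anchored ligand, was lower in mp53/Ras cells than in each of the other populations on its leading probe set. Efna1 read 8.36, 8.68 and 9.27 in YAMC, 8.36, 8.71 and 9.19 in bleo/Neo, and 8.50, 8.79 and 8.91 in mp53 cells, as lowest, median and highest. It read 8.45, 8.67 and 8.75 in Ras and 8.04, 8.27 and 8.46 in mp53/Ras cells. The mp53/Ras arrays lay below all mp53 arrays and overlapped the other 3 groups at their edge. Efna1 fell in mp53/Ras cells by 0.49 against YAMC, 0.48 against bleo/Neo, 0.48 against mp53 and 0.37 ± 0.08 (SE) against Ras (1.29-fold), with limma adjusted p = 1.07e-06, 1.46e-06, 2.53e-06 and 0.000529. None of its 6 comparisons among the other 4 populations was called. Its second probe set, 1448510_at, was called in no comparison, with -0.29 ± 0.17 (SE) for mp53/Ras against bleo/Neo (adjusted p = 0.147 in the limma fit of probe sets). Ephrin-A5, also lipid-anchored, was not called in any comparison on its leading probe set: group means of Efna5 ran from 11.39 to 11.59, and its widest difference, mp53/Ras against YAMC, was -0.20 with a 95% interval of -0.55 to 0.15. A dim Efna5 probe set, 1421796_a_at, was called in 5 comparisons. It was above the table median on 10 arrays, the least the filter allows, of which 6 were bleo/Neo and 0 mp53/Ras. It passed only through the bleo/Neo arrays, where it was high, so the filter favoured its differences from bleo/Neo. It stood at 0.42 in bleo/Neo against YAMC, -0.33 in mp53 against bleo/Neo, and -0.65, -0.32 and -0.44 in mp53/Ras against bleo/Neo, mp53 and Ras.

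**Figure D2:**
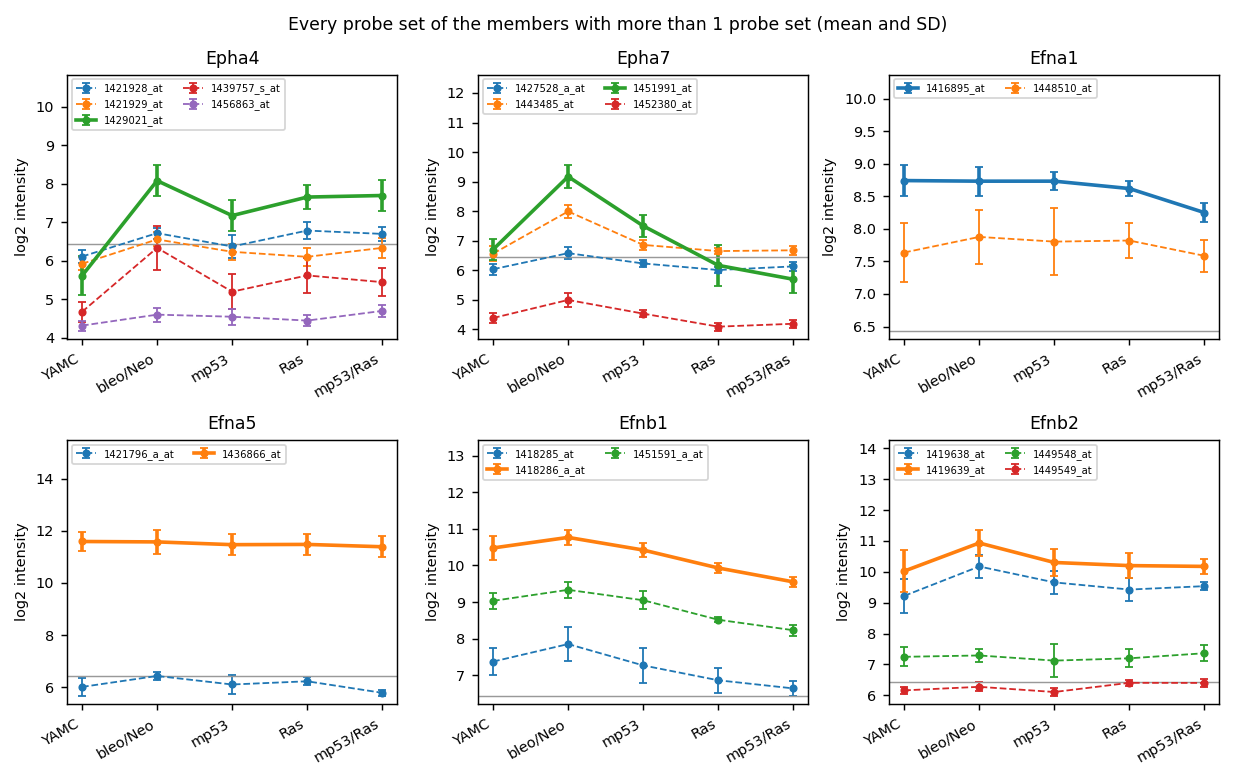
Group mean and SD (log2 intensity, vertical axis) of every probe set of the 6 members with more than 1 probe set, by population; the thick line is the leading probe set and the grey line the table median of 6.44. The 3 Efnb1 probe sets go the same way, while the Epha7 probe set 1443485_at stays near 6.65 in Ras and mp53/Ras cells where the leading one falls to 6.16 and 5.69.

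The promoters of the members whose groups separated most, Epha4, Epha7 and Efnb1, are shown for reference to the sequence upstream of these genes; the arrays do not measure promoter activity. Each runs 5′ to 3′ on the gene's strand over 250 bases before the RefSeq start in GRCm38.p6, at chr1:77515089-77515338 on the minus strand for Epha4, chr4:28812881-28813130 on the plus strand for Epha7 and chrX:99135811-99136060 on the plus strand for Efnb1. Capitals mark matches, on either strand, to a CCAAT box (CCAAT) or a GC box (GGGCGG).
Epha4: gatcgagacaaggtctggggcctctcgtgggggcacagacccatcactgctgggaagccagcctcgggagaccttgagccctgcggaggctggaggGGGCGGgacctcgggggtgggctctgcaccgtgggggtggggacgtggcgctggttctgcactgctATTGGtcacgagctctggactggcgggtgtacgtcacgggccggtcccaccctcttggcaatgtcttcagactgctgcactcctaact
Epha7: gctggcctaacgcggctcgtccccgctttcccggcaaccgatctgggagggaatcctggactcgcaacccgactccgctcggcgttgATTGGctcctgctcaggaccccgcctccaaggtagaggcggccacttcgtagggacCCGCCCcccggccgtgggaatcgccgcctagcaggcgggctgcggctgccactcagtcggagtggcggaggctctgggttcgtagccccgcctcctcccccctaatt
Efnb1: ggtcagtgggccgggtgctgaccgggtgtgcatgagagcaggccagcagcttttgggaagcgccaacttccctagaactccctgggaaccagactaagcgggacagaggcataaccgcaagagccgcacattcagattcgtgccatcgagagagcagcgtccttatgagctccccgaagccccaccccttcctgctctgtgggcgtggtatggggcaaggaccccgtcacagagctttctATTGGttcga
Epha4 and Epha7 each held a CCAAT box and a GC box, and Efnb1 held a CCAAT box alone. CCAAT was present in 34.5% of 27025 RefSeq promoters of the same length and GGGCGG in 32.9%. An AP-1 site (TGANTCA, in 6.87% of promoters), a cAMP response element (TGACGTCA, 1.62%), an Ets core (CCGGAA, 12.2%) and a Tcf core (CTTTGA, 14%) were not found in these 3 windows on either strand, and no overlap between motifs was counted. The windows held 14 CpG in Epha4, 25 in Epha7 and 13 in Efnb1, where the median over all promoters was 6 and the upper quartile 16.

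Read by comparison, the empty vectors alone went with 6 called members of 9 in bleo/Neo against YAMC. Epha4, Epha7, Efnb1 and Efnb2 rose and Ephb3 and Ephb4 fell, where 37.4% of all tested genes were called. Mp53 against YAMC gave 3 (Epha4 and Epha7 higher, Epha2 lower) beside 22.9% of all genes. Ras against YAMC gave 4 (Epha4 higher, Epha7, Ephb4 and Efnb1 lower) beside 42.7%. In mp53/Ras against YAMC, 5 were called, with Epha4 higher and Epha2, Epha7, Efna1 and Efnb1 lower, beside 57.8%. These 4 comparisons share the YAMC arrays.

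Against the vector control, mp53 had 6 called members, Ephb3 and Ephb4 higher and Epha4, Epha7, Efnb1 and Efnb2 lower, beside 35.4% of all genes. The comparisons with bleo/Neo share its arrays with each other and with that of bleo/Neo against YAMC. Ras against bleo/Neo gave 5 (Ephb3 higher, Epha4, Epha7, Efnb1 and Efnb2 lower) beside 41.1%, and mp53/Ras against bleo/Neo 5 (Ephb3 higher, Epha7, Efna1, Efnb1 and Efnb2 lower) beside 54.6%. The median difference of the 9 members in mp53/Ras against bleo/Neo was -0.39, and 0.01 over all genes tested.

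Between the oncogene populations, Ras against mp53 gave 5 called members, with Epha4 higher by 0.48 and Epha7, Ephb3, Ephb4 and Efnb1 lower, beside 32.9% of all genes. The mp53/Ras cells differed from mp53 in 6, with Epha4 higher and Epha7, Ephb3, Ephb4, Efna1 and Efnb1 lower, beside 47.1%. They differed from Ras in 2, Efna1 and Efnb1, both lower, beside 21.6%. In mp53/Ras against Ras, the second Efna1 probe set stood at -0.23 and was not called. The other Efnb1 probe sets stood at -0.29, called, and at -0.22, not called. Among the comparisons with YAMC, the 10 arrays of each group did not overlap for 2 members in bleo/Neo (Epha4 and Epha7; 4.88% of all genes), 1 in mp53 (Epha4; 0.241%), 1 in Ras (Epha4; 4.18%) and 3 in mp53/Ras (Epha2, Epha4 and Efnb1; 16.1%). Among those with bleo/Neo, this held for 1 in mp53 (Ephb3; 4.52%), 2 in Ras (Epha7 and Efnb1; 6.81%) and 2 in mp53/Ras (Epha7 and Efnb1; 17.3%). Between oncogene populations it held for 0 members in Ras against mp53 (1.16%), 3 in mp53/Ras against mp53 (Epha7, Efna1 and Efnb1; 11%) and 1 in mp53/Ras against Ras (Efnb1; 4.31%).

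**Figure D3:**
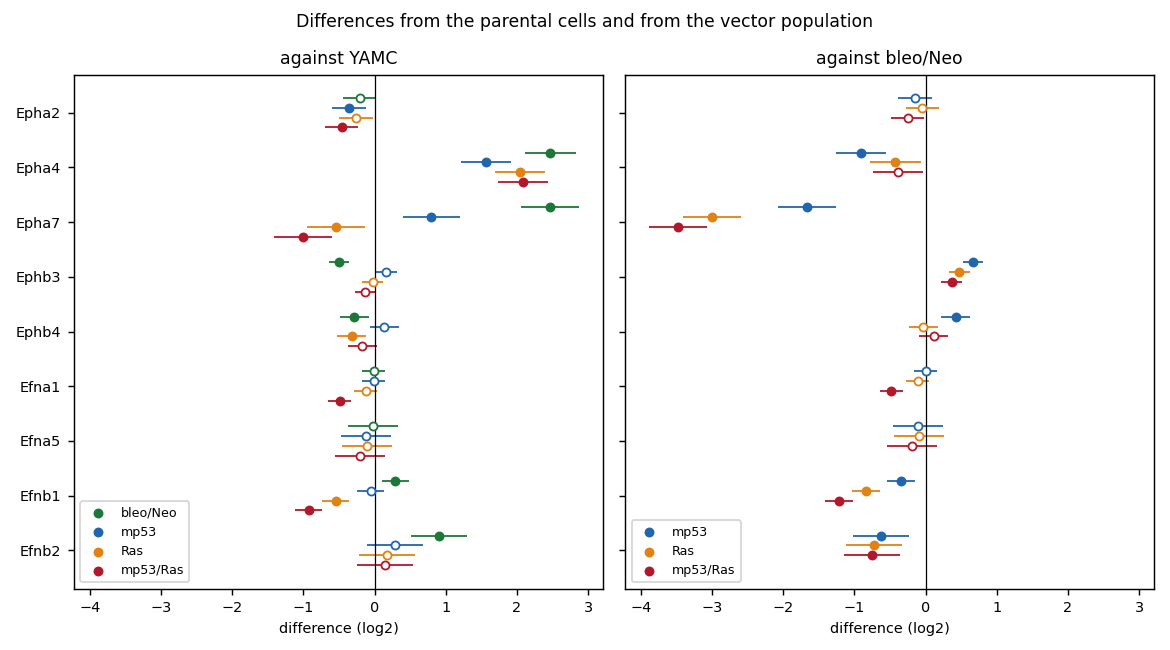
Differences of each of the 9 members (log2, horizontal axis) in the comparisons with YAMC and with bleo/Neo, with 95% intervals; filled points were called in the limma fit and open points were not. Epha4 lies to the right of 0 in all comparisons with YAMC, Epha7 reaches -3.48 and Efnb1 -1.22 in mp53/Ras against bleo/Neo, and all Efna5 points are open.

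Whether the difference made by Ras depended on mutant p53 was tested as the difference in mp53/Ras against mp53 minus that in Ras against bleo/Neo. It was called for 4 members of 9, beside 23.9% of all genes. Epha4 went from -0.43 without mp53 to 0.52 with it (term 0.95 ± 0.25 SE; limma adjusted p = 0.00345), and Epha7 from -3.01 to -1.81 (term 1.20 ± 0.29; adjusted p = 0.00127). The Epha4 values are those of its leading probe set. On 1421928_at the Epha4 means were 6.71 in bleo/Neo and 6.78 in Ras cells, so Ras was not lower there. They were 6.37 in mp53 and 6.69 in mp53/Ras cells. On 1421929_at, which passed the filter only with the bleo/Neo arrays, these 4 means were 6.55, 6.10, 6.23 and 6.33. The size of the Epha7 term is uncertain, since its means in both Ras-carrying populations were under the table median. Ephb3 rose by 0.47 with Ras alone and fell by 0.30 when Ras was added to mp53 (term -0.77 ± 0.10; limma adjusted p = 4.71e-08). Efna1 went from -0.11 to -0.48 (term -0.37 ± 0.11; limma adjusted p = 0.0137), but its second probe set gave -0.16, not called. For Efnb1 the differences were -0.84 and -0.87, and the term of -0.03 was not called. The result turned on which control stood for the cells without oncogenes. With YAMC in place of bleo/Neo, the Epha4 and Epha7 terms changed sign, to -1.52 (limma adjusted p = 1.59e-05) and -1.27 (adjusted p = 0.00141). The Ephb3 term was then -0.27 and no longer called (limma adjusted p = 0.068), while the Efna1 term of -0.36 remained called (adjusted p = 0.0285).

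**Figure D4:**
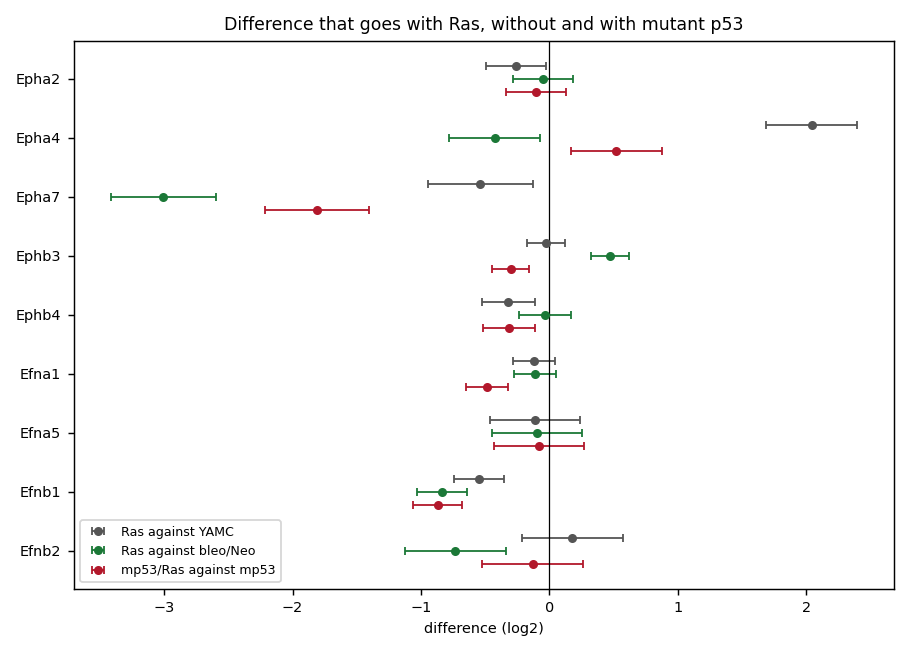
Difference that goes with Ras for each of the 9 members (log2, horizontal axis; points are differences between means of 10 arrays, bars 95% intervals) against YAMC, against bleo/Neo and on top of mp53. The 3 points of Efnb1 lie at -0.55, -0.84 and -0.87, whereas those of Epha4 lie at 2.04, -0.43 and 0.52 and those of Ephb3 change side.

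Of 12 further Eph and ephrin genes, 8 passed the filter and were tested. In bleo/Neo against YAMC, 3 rose (Ephb6, a receptor without kinase activity, by 1.13, Efna2 by 0.36 and Ephb1 by 0.28) and 1 fell (Epha1, by 0.22), with a median over the 8 of 0.13 and 0.01 over all genes, of which 37.4% were called. In Ras against bleo/Neo, 0 rose and 3 fell, the ligands Efna2 by 0.79 and Efnb3 by 0.56 and the receptor Ephb1 by 0.35, beside 41.1% called over all genes. In mp53/Ras against bleo/Neo, 2 rose and 3 fell, with Efnb3 at -0.80, Efna2 at -0.63 and Ephb6 at -0.49, beside 54.6% called over all genes. Among 45 signalling partners of Eph receptors, 40 were tested, and 14 rose and 9 fell in mp53/Ras against bleo/Neo, with a median of 0.11 beside 0.01 over all genes and 54.6% of all genes called. Bcar3 (1.70), the adaptor Shc1 (1.07) and the exchange factor Ngef (0.98), which acts downstream of EphA receptors, were higher there, and the PDZ protein Pick1 (-1.05) and the Rac exchange factor Tiam1 (-0.82) were lower. Ras against bleo/Neo gave 11 higher and 8 lower partners, beside 41.1% of all genes called, and bleo/Neo against YAMC gave 7 and 8, beside 37.4%.

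Of 13 Tcf targets, 7 were tested. A link between these genes and the Eph receptors was not tested. In bleo/Neo against YAMC, 3 Tcf targets rose and 0 fell, with a median of 0.07 beside 0.01 over all genes, of which 37.4% were called. In Ras against bleo/Neo, 1 rose and 1 fell, beside 41.1% of all genes called. In mp53/Ras against bleo/Neo, 3 rose and 2 fell, among them the transcription factor Sox9 (1.03) and the Wnt inhibitor Notum (-1.23), beside 54.6%.

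Within populations, the deviations of the 50 arrays from their group means went along in some pairs of members, given here as a description, since members share array, RNA preparation and normalisation. Pearson's r was 0.61 for Epha7 with Efna5, 0.60 for Epha2 with Ephb4 and 0.50 for Efna1 with Efnb1, and -0.55 for Efna5 with Efnb2. Over all 50 arrays, group differences included, the tested genes most like Epha7 were Ndnf, Recql, Adgrg2, Ctnna2 and Mapk4, with r from 0.91 down to 0.90. Those most like Epha4 were Med14, Hdhd3, Mfsd3, Mycn and Rab38, with r from 0.83 down to 0.82.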

How the data were processed

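Total polysomal RNA from sucrose gradients was hybridised to Affymetrix mouse expression arrays. The authors deposited one table of linear intensity values, normalised by RMA per the submitters' processing notes, with no version given. Array medians ran from 86.4 to 86.7. The number of arrays limits the precision. Blank values removed 64 of 45101 probe sets. Of the rest, 34945 had 1 gene symbol in the platform annotation, 932 several and 9160 none, and only those with 1 symbol were used.

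Values were converted to log2 without an offset (the lowest was 3.04). The brightest probe set by mean stood for its gene, which was kept if above the table median on at least 10 of 50 arrays. limma 3.58.1 in R 4.3.3 fitted 5 group means with an intensity trend, and 10 pairwise contrasts and the non-additive term were adjusted by Benjamini-Hochberg over 12883 genes. Probe sets were fitted separately. The script was tested on simulated data. Members and lists (other family genes, signalling partners, Tcf targets, ERK-induced genes, cell type markers) were chosen with earlier results of these data known. All members are named, and other genes only among the 5 largest called differences of a list or the 5 nearest by correlation. Alternatives were other filters, an offset, cyclic loess, no trend, array weights, mean of probe sets, a replicate block, leaving out the arrays that stood apart, and YAMC as baseline. Promoters came from RefSeq, where 10 of 10 members matched.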

Additional observations from a re-analysis of the deposited data

Results flagged for a closer look

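In 7 of 45 sets of 10 arrays, 1 per member and population, one array stood further from its nearest neighbour than Dixon's critical ratio at the 95% level allows, and chance alone gives about 1 in 20. The array labelled mp53 5 read 11.23 for Epha2 and 9.14 for Ephb4, both the highest of their group. Epha7 was lowest on bleo/Neo 4, at 8.23, and highest among mp53/Ras arrays on mp53/Ras 9, at 6.80. Efna5 was lowest on YAMC 4, at 10.69, lowest on bleo/Neo 4, at 10.56, and highest on mp53 8, at 12.51. The array labelled bleo/Neo 4 thus stood apart for both Epha7 and Efna5.

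The difference that goes with Ras was not the same with and without mutant p53 for 4 members by the test of the difference itself in the limma fit. With bleo/Neo as baseline, the term on the leading probe sets was 0.95 for Epha4, 1.20 for Epha7, -0.77 for Ephb3 and -0.37 for Efna1. With YAMC as baseline, the Epha4 and Epha7 terms changed sign and the Ephb3 term was not called. With the mean of all probe sets of a gene, the Efna1 term was not called.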

How the results depend on the processing

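Over 988 recomputed differences and terms of single members, 963 either kept a call with its direction or stayed uncalled, 5 lost the call, 18 gained one and 2 reversed. Some uncalled values near 0 changed sign, such as Efna1 in bleo/Neo against YAMC (-0.03 to 0.12). The reversals came with YAMC as baseline of the non-additive term, at -1.52 for Epha4 and -1.27 for Epha7, where the Ephb3 term of -0.27 lost its call. Of the counts of called members, one moved by over 1.5 times: with the mean of all probe sets of a gene, where Epha4 no longer passed the filter, the non-additive term was called for 2 of 8 members rather than 4 of 9, and Efna1 was lost (limma adjusted p = 0.243). The same setting called Efna5 in mp53/Ras against bleo/Neo at -0.42. Array weights gained 9 calls and lost 0, and over all genes raised the count called from 2952 to 5971 in mp53 against YAMC, from 4243 to 6779 in Ras against mp53, from 2779 to 4973 in mp53/Ras against Ras and from 3073 to 5137 for the non-additive term. With no filter, 18193 genes were tested and the counts were 4711 in mp53 against YAMC, 4576 in mp53/Ras against Ras and 5038 for the term. Leaving out the 4 arrays that lay nearer another group lost 2 calls and gained 3, Epha4 in mp53/Ras against bleo/Neo and Ephb4 in mp53 against YAMC and in the non-additive term. The stricter and absent filters and the fit without trend changed no call. The replicate numbers were not taken as a pairing in the main fit, because the labels do not say that same-numbered arrays belong together. Same-numbered arrays were nonetheless more alike than others, and the main fit left this likeness out. Of 100 same-numbered pairs of arrays, 67 correlated above 0.1 in their deviations. The median was 0.19 for the same number and -0.02 for other numbers, and 31 of 50 arrays correlated best with their own number. A replicate block called 7 members rather than 5 in mp53/Ras against bleo/Neo and 5 rather than 4 in Ras against YAMC, where it called Epha2 (limma adjusted p = 0.0368). Over all genes the block raised the count called in every comparison, such as from 2779 to 3368 in mp53/Ras against Ras.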
